A study of Mus musculus with 12 samples.

Results

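The replication licensing genes described here are the 10 genes Mcm2, Mcm3, Mcm4, Mcm5, Mcm6, Mcm7, Cdt1, Gmnn, Cdc6 and Orc1, chosen by name, out of 25092 genes and repeats with values in the series. All 10 were present, through 15 RefSeq transcripts, and all 10 passed the filter on low counts in every comparison. Mouse zygotes (strain B6D2F1) came, by the labels, from superovulated females of 8 to 10 weeks, collected 18 to 20 h after hCG. The study's methods give younger females, and in vitro fertilization for injected oocytes. The Lsm1_KD zygotes received siRNA against Lsm1, and the Ctrl zygotes scramble siRNA. For RNA immunoprecipitation sequencing (RIP-seq), FLAG zygotes received mRNA for LSM1 with a 3XFlag tag. The control zygotes of the RIP-seq are labelled as given untagged Lsm1 mRNA, although their titles name IgG. The lysate before pull-down is the Input, and the RNA on anti-FLAG beads is the IP, so that there were 12 libraries in 6 groups of 2. The labels place the siRNA injection in zygotes and the study's scheme places it in GV oocytes, and which was used for these libraries was not settled here. Each RNA-seq library came from a pool of a few embryos.

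Licensing prepares chromosomes for a round of DNA replication. The origin recognition complex, of which ORC1 is a subunit, marks origins, and together with CDC6 and CDT1 it loads the hexameric helicase MCM2 to MCM7 onto DNA. Geminin, the product of Gmnn, binds CDT1 and blocks loading again within the same cell cycle, and CDT1 and geminin are both degraded at set times in the cycle. The mouse zygote replicates its DNA separately in the maternal and the paternal pronucleus, largely with messages and proteins stored in the oocyte.

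The libraries held 4636492 to 13968315 estimated counts in the RNA-seq and 9865512 to 31586450 in the RIP-seq. All 12 oocyte and zygote markers checked lay above 1 TPM, the length-corrected abundance scale of Salmon, in every library. Repeats took 12.7% of the counts of FLAG IP replicate 1 and 0.102% to 2.63% in the other libraries, so results that rest on it are given with and without it. The targeted gene was lower in the knockdown, with 63.6 and 71.0 CPM (counts scaled to a common library size, normalized by TMM) of Lsm1 in Lsm1_KD against 143 and 147 in Ctrl (log2 fold change -1.10, SE 0.22, adjusted p = 0.012 by edgeR). Lsm1 stood at 10840 and 16750 CPM in the FLAG Input but at 18.3 and 18.4 CPM in the Ctrl Input, so that the control lysates held no excess of Lsm1 RNA. RNA values are shares of a library, and fewer zygotes cannot be told apart from less RNA per zygote.

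In Ctrl zygotes the inhibitor of licensing had the highest level of the group and the loader Cdc6 the lowest, on the TPM scale that corrects for transcript length. Gmnn stood at 787 and 938 TPM in the libraries of Ctrl. Mcm2, the next, stood at 231 and 402 TPM, and Cdt1 followed at 201 and 188 TPM. Below them the order was Mcm4 at 136 and 145 TPM, Mcm7 at 95.3 and 127 TPM, Orc1 at 69.5 and 87.5 TPM, Mcm6 at 62.6 and 64.7 TPM and Mcm3 at 41.0 and 44.4 TPM. Mcm5 stood at 20.4 and 23.6 TPM, and Cdc6, which brings the helicase to ORC, at 13.7 and 19.5 TPM. No neighbours in this order overlapped between libraries. The levels therefore spanned a mean of 862 ± 107 TPM for Gmnn (SD, n = 2) to 16.6 ± 4.13 TPM for Cdc6 (SD, n = 2).

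**Figure D1:**
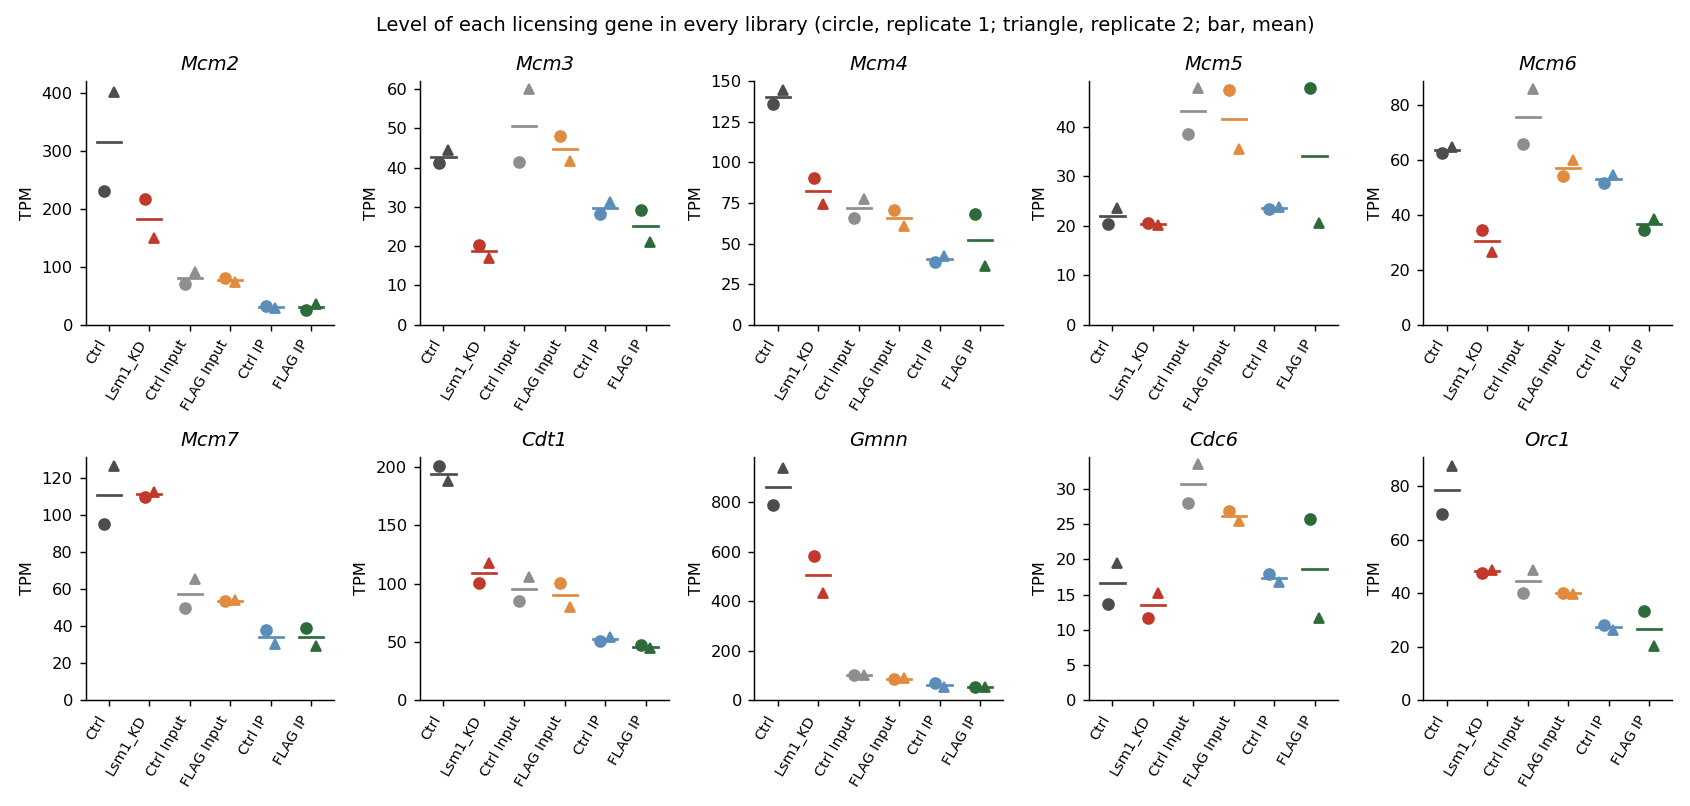
TPM of each licensing gene (vertical axes, from 0) in the 12 libraries, ordered by group, with circles for replicate 1, triangles for replicate 2 and bars for the mean of a group. Gmnn stands at 432 to 938 TPM in the RNA-seq libraries (Ctrl and Lsm1_KD) and at 85.8 to 103 TPM in the Inputs.

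In the Inputs of the RIP-seq, made with another library kit, the levels lay closer together. Gmnn stood at 103 and 103 TPM in the Ctrl Input and at 85.8 and 90.8 TPM in the FLAG Input, and Cdt1 at 85.3, 106, 100 and 80.4 TPM in the same order of libraries. The ratio of Cdt1 to Gmnn TPM was 0.256 and 0.200 in Ctrl and 0.173 and 0.273 in Lsm1_KD. In the 4 Inputs the ratio lay between 0.829 and 1.17. Cdt1 was thus below its inhibitor in all RNA-seq libraries and near it in the Inputs. The RNA-seq and the RIP-seq differ in kit, amount of starting material and injected RNA, and these cannot be told apart.

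The 6 helicase subunits act in equal numbers, and their messages were far from equal in the RNA-seq. The highest of Mcm2 to Mcm7 exceeded the lowest 11.3-fold and 17.0-fold in Ctrl and 10.6-fold and 8.76-fold in Lsm1_KD. In the Inputs the ratio was 1.69 to 2.08. Mcm2 was the most abundant of the 6 in all 8 of these libraries, with 37.4% to 49.9% of the summed TPM of Mcm2 to Mcm7 in the RNA-seq and 21.1% to 22.7% in the Inputs. Mcm5 took the smallest share in Ctrl and in the Inputs, and Mcm3 in Lsm1_KD.

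Within the helicase messages, the shares of 4 subunits did not overlap between Lsm1_KD and Ctrl, and those of Mcm2 and Mcm4 did. In normalized CPM, 28.6% of all features lay below Ctrl and 29.3% above it without overlap, so that the count of 4 subunits is no result in itself. Mcm7 took 22.3% and 28.1% of the summed TPM of Mcm2 to Mcm7 in Lsm1_KD against 16.3% and 15.7% in Ctrl. Mcm3 took 4.13% and 4.27% against 7.00% and 5.51%, and Mcm6 took 7.01% and 6.62% against 10.7% and 8.03%. Mcm5 took 4.17% and 5.01% against 3.47% and 2.93%. Mcm7 therefore ranked above Mcm4 in both libraries of Lsm1_KD and below it in both of Ctrl. With 2 libraries a group no exact test of a single value can reach 0.05.

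**Figure D2:**
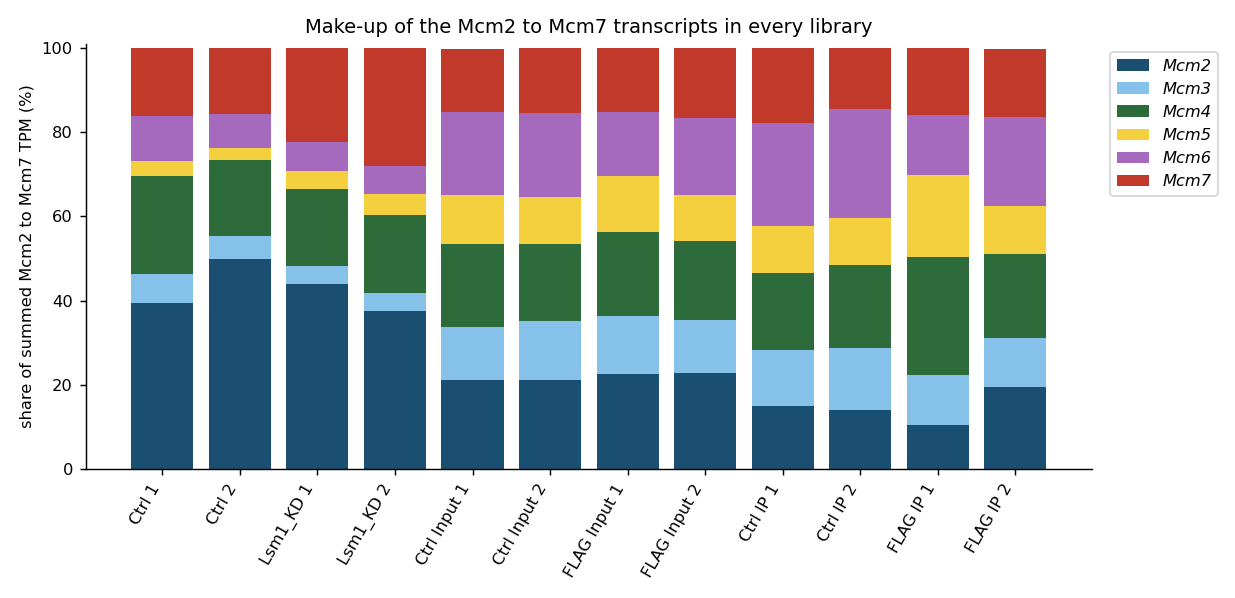
Share of the summed TPM of Mcm2 to Mcm7 (vertical axis, %) taken by each gene in the 12 libraries, 1 stacked bar per library. Mcm2 takes 37.4% to 49.9% in the RNA-seq libraries and 21.1% to 22.7% in the Inputs, and Mcm7 takes more in Lsm1_KD (22.3% and 28.1%) than in Ctrl (16.3% and 15.7%).

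The transcripts to which Salmon assigned the reads differed between the experiments for Mcm5 and Mcm7. The Mcm5 gene lies on chr8:75109468-75128439 (GRCm38.p6, plus strand), and its transcripts NM_001302540 and NM_008566 differ only in 24 bases at the end of the first exon, ahead of the coding region, which starts in exon 2. NM_001302540, the shorter, took 100%, 100%, 68.2% and 100% of Mcm5 TPM in Lsm1_KD 1 and 2 and Ctrl 1 and 2. It took 3.63% to 10.6% in the Inputs and 0% to 15.3% in the IPs. Only reads that reach the end of the first exon separate the transcripts.

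Mcm7 lies on chr5:138164583-138172111 (minus strand) and has 2 alternative starts 617 bases apart. NM_008568 begins at the upstream start (base 138171883) and has its start codon in exon 1. NM_001356576 begins at the downstream start (base 138171266), and its annotated coding region opens in exon 4 and is shorter, at 1839 against 2160 bases. The downstream transcript took 46.5% and 77.7% of Mcm7 TPM in Lsm1_KD and 69.1% and 51.3% in Ctrl, so that the groups overlapped. In the Inputs it took 0% to 1.52%, and NM_008568 took 93.5% to 98.7%. A transcript that shares the downstream start but keeps a longer first exon, NM_001356577, had no reads in the RNA-seq, 0.521% to 6.49% in the Inputs and 2.73% to 54.0% in the IPs. Its share was 27.5% in Ctrl IP replicate 1 and 54.0% in FLAG IP replicate 1, against 2.73% and 7.13% in the other Ctrl IP and FLAG IP libraries. The kits of the experiments differ and cannot be told apart from other causes of these shares. For the comparisons below, the transcripts of a gene were summed.

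**Figure D3:**
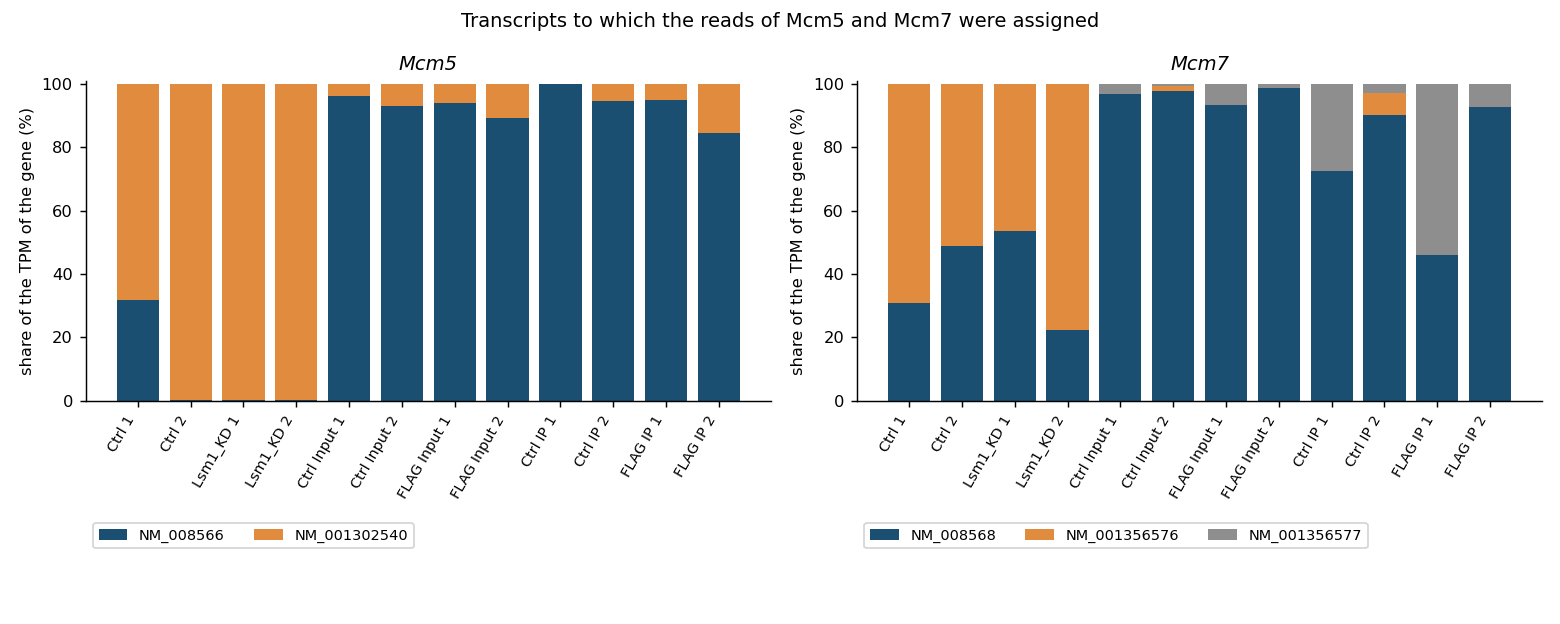
Share of the TPM of Mcm5 (left) and Mcm7 (right) assigned to each RefSeq transcript (vertical axes, %) in the 12 libraries, 1 stacked bar per library. The downstream-start transcript NM_001356576 takes 46.5% to 77.7% of Mcm7 in the RNA-seq libraries and 0% to 1.52% in the Inputs.

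The bases just before the starts of Mcm7 are printed to show that these are separate starts with unlike flanks, read 5′ to 3′ on the minus strand from RefSeq promoter sequences (GRCm38.p6). The upstream start follows chr5:138171884-138171935 and the downstream start follows chr5:138171267-138171318, which lies in an intron of NM_008568. Of the bases in each, 63.5% and 65.4% are G or C.
Mcm7 upstream start: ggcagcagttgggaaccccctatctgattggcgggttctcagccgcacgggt
Mcm7 downstream start: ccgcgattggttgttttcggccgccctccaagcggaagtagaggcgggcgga

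Licensing genes are known targets of E2F factors, which bind DNA at the start of S phase in cycling cells. The core letters TTTCCCGC, TTTCGCGC, TTTGCCGC and TTTGGCGC were searched on both strands in the 250 bases before each RefSeq start. A window was at hand for 8 of the 10 genes (for all but Mcm4 and Gmnn), and 5 of the 8 genes held a match in 1 window. Of their 9 windows, Mcm7 having 2, 5 held a match, against 1.86% of 32851 promoter windows of the same length. Mcm7 had its match before the upstream start and none before the downstream start. The matching stretches are shown because they hold the matches found, with the matched letters in capitals.
Mcm5, chr8:75109334-75109389, plus strand: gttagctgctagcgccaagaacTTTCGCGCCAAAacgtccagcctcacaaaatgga
Mcm6, chr1:128359782-128359837, minus strand: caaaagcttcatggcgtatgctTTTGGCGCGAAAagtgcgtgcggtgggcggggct
Mcm6, chr1:128359723-128359774, minus strand: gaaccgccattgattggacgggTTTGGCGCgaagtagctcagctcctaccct
Mcm7, chr5:138172019-138172070, minus strand: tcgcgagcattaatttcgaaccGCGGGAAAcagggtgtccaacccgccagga
Cdc6, chr11:98907991-98908042, plus strand: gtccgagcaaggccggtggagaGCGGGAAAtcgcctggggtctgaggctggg
Orc1, chr4:108579405-108579453, plus strand: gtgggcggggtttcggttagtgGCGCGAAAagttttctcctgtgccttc
In Mcm5 and in the first stretch of Mcm6, a match on each strand overlaps, which gives 12 capitals. The Cdc6 window belongs to the start of NM_011799, whereas 94.6% to 100% of Cdc6 TPM in the RNA-seq was assigned to NM_001025779, which starts farther upstream. A match in letters is not a binding site, and Mcm2, Mcm3 and Cdt1 had none in their windows.

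The comparison of Lsm1_KD with Ctrl asks which messages changed when LSM1, a subunit of the cytoplasmic ring that promotes decapping and decay of deadenylated mRNA, was depleted. No licensing gene passed an adjusted p of 0.05 by the edgeR quasi-likelihood test over 11335 features, where 6.45% of features were called higher and 4.56% lower. The fold changes nevertheless leaned to one side. Of the 10 genes, 8 lay below 0 on the log2 scale, with a median of -0.49, against 49.7% of all features below 0 and a median of 0.01. The 8 include Cdc6, which lay at -0.002 and changed sign in 4 of 13 alternatives. The genes were chosen with earlier results of these data known, and the lean was not tested. At an unadjusted p under 0.05, 5 of the 10 were lower (Mcm3, Mcm4, Mcm6, Cdt1 and Gmnn) and none higher, where 12.9% of all features were lower and 14.2% higher. In 6 genes both Lsm1_KD libraries lay below both Ctrl libraries, and in 2 both lay above, where 28.6% and 29.3% of all features did so.

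Among the helicase subunits, Mcm3 and Mcm6 had the largest differences. Mcm3 stood at 28.9 and 25.6 CPM in Lsm1_KD and at 48.0 and 54.4 CPM in Ctrl, a log2 fold change of -0.91 (SE 0.27, 95% interval -1.51 to -0.31, adjusted p = 0.058). Mcm6 stood at 50.5 and 40.9 CPM against 75.4 and 81.5 CPM, a log2 fold change of -0.78 (SE 0.25, 95% interval -1.33 to -0.24, adjusted p = 0.068). Both genes were lower in both knockdown libraries without overlap, and both stayed just outside the threshold. Over the 13 alternatives the adjusted p was 0.011 to 0.23 for Mcm3 and 0.0096 to 0.30 for Mcm6. The lowest value of each came from a replicate block with crossed pairing, added after seeing the data. DESeq2 gave 0.025 for Mcm3 and 0.028 for Mcm6. Mcm4 stood at 162 and 141 CPM against 200.3 and 223 CPM, also without overlap, with a log2 fold change of -0.49 (SE 0.20, adjusted p = 0.15). Mcm2, with 363 and 265 CPM against 318 and 580 CPM, overlapped between groups, since its Ctrl libraries lay far apart (log2 fold change -0.52, SE 0.28, adjusted p = 0.27).

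The other helicase subunits did not share this direction. Mcm5 stood at 34.9 and 36.0 CPM in Lsm1_KD against 28.6 and 34.6 CPM in Ctrl, a log2 fold change of 0.17 (SE 0.28, adjusted p = 0.75). Mcm7 stood at 127 and 136 CPM against 90.1 and 126 CPM, a log2 fold change of 0.29 (SE 0.23, adjusted p = 0.47). Both lay above Ctrl in both libraries, and neither difference passed the test. The 95% intervals allowed log2 fold changes from -0.45 to 0.80 for Mcm5 and from -0.23 to 0.80 for Mcm7. On the TPM scale, where the median of all features lay at -0.23, the log2 fold change of Mcm5 turned to -0.11, while that of Mcm7 was 0.02.

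Of the loading factors and their inhibitor, Cdt1 and Gmnn had fold changes below 0 that did not pass the test. Cdt1 stood at 106 and 132 CPM in Lsm1_KD and at 175 and 171 CPM in Ctrl, a log2 fold change of -0.53 (SE 0.21, adjusted p = 0.13). Gmnn stood at 243 and 189 CPM against 268 and 339 CPM, a log2 fold change of -0.49 (SE 0.22, adjusted p = 0.17). Neither gene overlapped between groups. Orc1, for a subunit of the origin recognition complex, stood at 71.0 and 76.4 CPM against 85 and 112 CPM (log2 fold change -0.42, SE 0.24, adjusted p = 0.29). Of its exons, 346 bases overlap those of Gm12743 on the opposite strand, and whether the quantification used strand is not given in the sources used here. Cdc6 showed no detectable difference, with 26.7 and 36.9 CPM against 25.7 and 38.4 CPM and a 95% interval of -0.72 to 0.72 around a log2 fold change of -0.00.

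**Figure D4:**
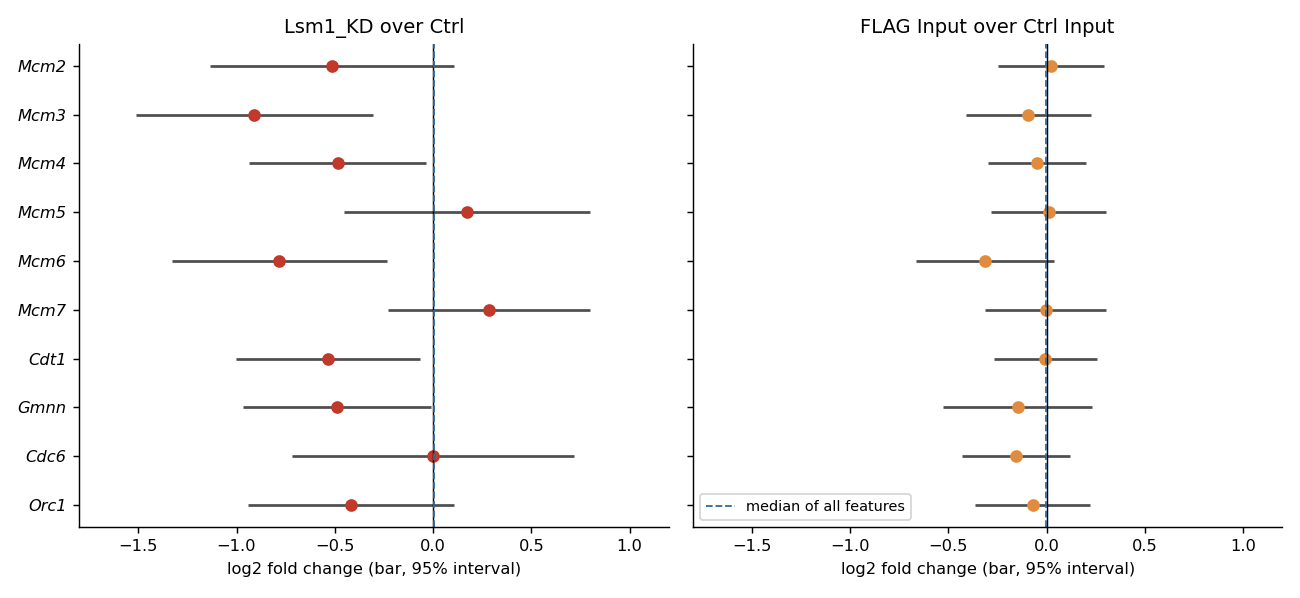
Log2 fold change of each licensing gene (points) with its 95% interval (bars) in Lsm1_KD over Ctrl (left) and FLAG Input over Ctrl Input (right), on the same horizontal scale, with the median of all features as a dashed line. In the knockdown, Mcm3 (-0.91) and Mcm6 (-0.78) lie farthest below 0, and in the Inputs all genes lie between -0.31 and 0.02.

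How many licensing genes were called in the knockdown depended on the test. DESeq2 called Mcm3 (adjusted p = 0.025) and Mcm6 (adjusted p = 0.028) lower. The same genes were called lower by edgeR with no filter (adjusted p = 0.032 and 0.040), and limma on TPM also called Cdt1. On the TPM scale the median of the licensing genes lay at -0.76. With the transcript length trend taken out only Gmnn, whose transcript of 977 bases is the shortest of the group, was called lower (adjusted p = 0.029), and without Ctrl replicate 1 only Mcm2 was (adjusted p = 0.019). Markers of the 2-cell stage, 7 of 8 listed genes with values, summed to 61.1 and 48.2 TPM in Lsm1_KD against 221 and 153 TPM in Ctrl, with 1 to 3 of the 7 at 0 in a library. Tcstv1 made up most of that sum, at 44.0 and 26.9 TPM against 185 and 136 TPM, while Zfp352 stood at 2.85 and 2.71 TPM against 2.02 and 1.17 TPM. Sperm and spermatid markers summed to 28.8 and 39.9 TPM against 11.6 and 11.3 TPM, with 5 or 6 of 8 at 0. Nearly all of it was Prm2, at 27.0 and 38.4 TPM against 10.8 and 9.56 TPM, and Prm1, Tnp1, Tnp2, Odf1 and Smcp were at 0 in these 4 libraries. The part of either in these results was not tested.

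Some other genes of DNA replication were called in the knockdown, where 6.45% of all features were called higher and 4.56% lower. Of the genes tested, 4 of 6 other origin recognition genes, 2 of 3 relatives of MCM genes and geminin, 9 of 13 firing genes, 18 of 29 fork genes and 5 of 11 turnover genes lay below 0, and whether the licensing genes differ from them was not tested. None of the 6 other origin recognition genes was called, and the median of their log2 fold changes was -0.26. The 2 most abundant of them were Orc6, at 284 and 272 TPM in Lsm1_KD against 431 and 348 TPM in Ctrl (adjusted p = 0.49), and Orc5, at 228 and 160 TPM against 346 and 302 TPM (adjusted p = 0.19). Of the relatives of MCM genes and geminin, 3 of 6 could be tested and none was called. Mcmbp, which binds MCM subunits and aids their supply, stood at 120 and 106 TPM against 76.1 and 91.8 TPM (log2 fold change 0.72, SE 0.21, adjusted p = 0.052, and 0.0026 to 0.25 over the alternatives). The 0.0026 came from the block with crossed pairing, and DESeq2 gave 0.025. Mcm9, a helicase of recombination, stood at 5.04 and 6.63 TPM against 12 and 19.0 TPM (log2 fold change -1.10, SE 0.40, adjusted p = 0.10).

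Among 11 genes for turnover of licensing proteins, 2 rose and 1 fell, where 6.45% and 4.56% of all features did. Rbx1, the RING subunit of cullin ligases, rose from 332 and 312 TPM in Ctrl to 736 and 941 TPM in Lsm1_KD (log2 fold change 1.68, SE 0.21, adjusted p = 0.0018). Skp1, the adaptor of SCF ligases, rose (log2 fold change 1.09, SE 0.19, adjusted p = 0.008). Usp7, a deubiquitinase, fell by 0.69 on the log2 scale (SE 0.18, adjusted p = 0.04). Rbx1 and Skp1 act in the ligases that mark CDT1 for degradation in S phase, and both were called higher in all 13 alternatives. Usp7 was called in 8 of 13, and not without Lsm1_KD replicate 1 (adjusted p = 0.058), Lsm1_KD replicate 2 (adjusted p = 0.19) or Ctrl replicate 2 (adjusted p = 0.11). The median log2 fold change of the 11 genes was 0.27.

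Of 13 helicase activation and origin firing genes tested, only Ticrr, the partner of TOPBP1 in firing, was called, falling by 0.82 on the log2 scale (SE 0.19, adjusted p = 0.025). Of 29 replication fork genes, 2 rose and 1 fell, which is near the 6.45% and 4.56% of all features. Rpa3, the smallest subunit of the single-strand DNA binding protein, rose from 490 and 289 TPM to 1178 and 1956 TPM (log2 fold change 2.31, SE 0.31, adjusted p = 0.0023). Lig1, the ligase that joins Okazaki fragments, rose (log2 fold change 1.04, SE 0.27, adjusted p = 0.035), and Pola1, the catalytic subunit of DNA polymerase alpha, fell by 0.91 on the log2 scale (SE 0.21, adjusted p = 0.025). Rpa3 was called in all 13 alternatives, but with the length trend taken out its log2 fold change was 1.26. Ticrr and Pola1 were not called without Lsm1_KD replicate 2 (adjusted p = 0.13 and 0.16) or Ctrl replicate 2 (adjusted p = 0.077 and 0.059), and Lig1 lost its call whichever of the 4 libraries was left out (adjusted p = 0.072 to 0.14). The medians of both lists were -0.10, near that of all features.

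The comparison of FLAG Input with Ctrl Input asks whether tagged Lsm1 mRNA moved the RNA of the lysate before any pull-down. No licensing gene was called higher or lower, and of 14593 features only Lsm1 itself was called higher (0.00685%) and none lower (0%). Without adjustment, 401 features were higher and 174 lower at p under 0.05 by edgeR, and DESeq2 called 17 higher and 1 lower. The log2 fold changes of the licensing genes lay between -0.31 and 0.02, with a median of -0.06. Their 95% intervals were narrower than in the knockdown, and the lowest bound of the 10 was -0.67, for Mcm6. Both FLAG Input libraries lay below both Ctrl Input libraries for 3 genes (Mcm4, Mcm6 and Cdc6) and above for none, where 16.8% and 16.7% of all features did so. Mcm6, the outermost, stood at 113 and 146 CPM in the FLAG Input and at 152 and 169 CPM in the Ctrl Input (log2 fold change -0.31, SE 0.15, adjusted p = 0.94). It was called only when FLAG Input replicate 2 was left out (adjusted p = 0.0066). In none of the other 5 lists was a gene called.

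The pull-down comparisons ask which messages the beads enriched over the lysate, with and without the tag. In FLAG IP over FLAG Input, 21% of 18973 features were called higher and 5.48% lower. No licensing gene was called in either direction, and all 10 lay below 0, between -1.14 for Mcm2 and -0.45 for Mcm4, with a median of -0.65 where all features had a median of 0.49. Of all features, 42.3% lay below 0. Medians of the other lists were -0.81 for origin recognition, -0.58 for firing, -0.55 for turnover, -0.43 for fork and 1.64 for MCM and geminin relatives. Whether the licensing genes differ from them was not tested. The FLAG lysates disagreed on the size of the licensing gene ratios. The log2 ratio of IP to Input for Mcm2 was -2.36 in FLAG lysate 1 and -0.53 in lysate 2. For Cdt1 the ratio was -1.76 and -0.30, and for Gmnn -1.35 and -0.24. In normalized CPM all 10 genes were lower in lysate 1 than in lysate 2, and lysate 1 is that of the IP library rich in repeats. TPM did not show this order for every gene. Mcm4 went from 70.9 to 68.2 TPM in lysate 1 and from 61.1 to 36.5 TPM in lysate 2. Mcm2 kept the order, going from 79.9 to 25.1 TPM and from 74.0 to 35.2 TPM. Without FLAG IP replicate 1, the median of the licensing genes was -0.38, with Mcm6 at 0.05. Without FLAG IP replicate 2, all 10 lay below 0 with a median of -1.29, where all features had a median of 1.09. The size therefore depended on which FLAG pull-down was used.

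In the control pull-down, 2.12% of features were called higher and 0.00527% lower, and no licensing gene was called. The control lysates were close to each other. Mcm2 had the lowest log2 ratio of IP to Input, at -0.73 and -0.92, and the other 9 genes lay between -0.40 and 0.08 in both lysates. Its difference did not pass the test (log2 fold change -0.83, SE 0.56, adjusted p = 0.54). Its share of the helicase messages went from 21.1% and 21.2% in the Ctrl Input to 15.0% and 14.0% in the Ctrl IP. Mcm2 was called lower when FLAG IP replicate 1 (log2 fold change -0.87, adjusted p = 0.0048) or replicate 2 (-0.82, adjusted p = 0.0040) was left out of the joint fit, and over all alternatives its adjusted p was 0.0040 to 1.

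The ratio of FLAG IP over Input to that of the control is the term that separates the tag from the beads. It gave no call over all 18973 features (0% higher and 0% lower), while 757 features were higher and 239 lower before adjustment at p under 0.05, and DESeq2 called 0 higher and 1 lower. The licensing genes lay between -0.64 for Mcm3 and -0.15 for Mcm5, with a median of -0.46 against 0.02 for all features, and their adjusted p-values were 0.80 to 0.94. Of all features, 49.4% lay below 0. Medians of the other lists were -0.50 for origin recognition, -0.48 for firing, -0.45 for turnover, -0.38 for fork and 0.74 for MCM and geminin relatives. The intervals of the licensing genes were wide. For Mcm2 the 95% interval ran from -2.04 to 1.41. Without FLAG IP replicate 1 the median of the licensing genes was -0.03, with 6 of 10 below 0. Without FLAG IP replicate 2 it was -1.12 with 10 of 10 below 0, where all features had a median of 0.33. This comparison therefore turned on which FLAG pull-down was used. On TPM with limma, 6 of the 10 genes lay above 0 and none was called, where the median of all features lay at 0.53.

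**Figure D5:**
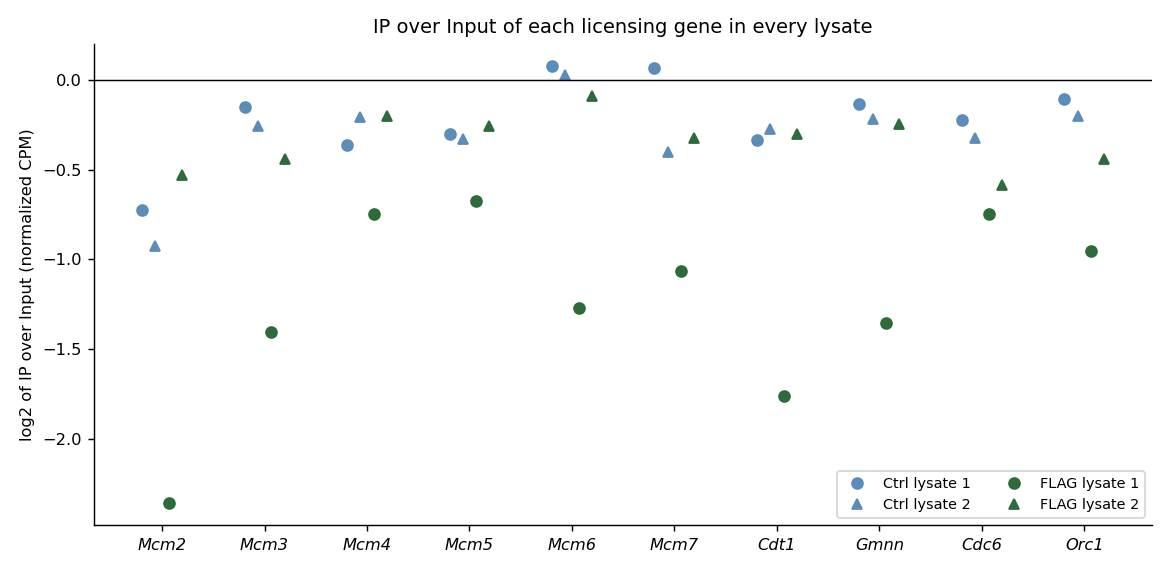
Log2 ratio of IP to Input (vertical axis, from normalized CPM) of each licensing gene in the 2 control lysates (blue) and the 2 FLAG lysates (green), with circles for lysate 1 and triangles for lysate 2. FLAG lysate 1 is the lowest point for all 10 genes, down to -2.36 for Mcm2.

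Over the 8 libraries of total RNA (4 of RNA-seq and 4 Inputs, each centred on the mean of its experiment), the profile of the helicase genes was mainly that of Mcm2, Mcm4, Mcm3 and Mcm6. Their Pearson correlations with the mean profile of Mcm2 to Mcm7, in which they take part, were 0.93, 0.91, 0.89 and 0.87. These stood at ranks 165, 259, 338 and 485 of 8045 features. Orc1 and Gmnn, which do not take part, had 0.90 and 0.84, at ranks 291 and 602. Cdt1 and Cdc6 had 0.60 and 0.31, at ranks 2063 and 3322. Mcm7 (-0.06) and Mcm5 (-0.16) stood outside it. Among 8045 features, those in no list with the most similar profile were Pacsin2 (0.99), Fbxo38 (0.99), Mtor (0.99), Tcf12 (0.99) and Znfx1 (0.98). These are correlations over libraries that share experiments and scaling, and they describe likeness only.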

How the data were processed

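The authors trimmed the reads (Trimmomatic per the labels, Cutadapt per the study), checked them with FastQC and ran Salmon against mm10 RefSeq transcripts with repeats added. The authors deposited estimated counts and TPM for 37713 features in each of 12 libraries. Estimated counts that were above 0 were fractional in 55.5% of cases (tolerance 1e-06). The labels and the study name different RNA-seq kits.

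Of 37366 transcripts, 37067 matched a gene of GRCm38.p6. Estimated counts were summed by gene symbol and rounded. Tests used the edgeR 4.0.16 quasi-likelihood fit (R 4.3.3, TMM, filterByExpr, Benjamini-Hochberg over all features, called at 0.05). DESeq2 1.42.0, limma 3.58.1 (log2 of TPM + 1 or + 0.1), other scalings, length offsets, a replicate block and left-out libraries were alternatives. Common dispersions were 0.112 in the RNA-seq, 0.034 in the Inputs and 0.239 in all RIP-seq libraries. TMM factors were 1.87 for FLAG IP replicate 1 and 0.872 to 1.06 otherwise. All 10 members were named. Of each other list, up to 4 genes called in the knockdown or the Inputs were named, by smallest adjusted p, or the 2 most abundant by mean TPM over the 12 libraries where none was called. The members and lists were chosen with earlier results of these data known. Profile likeness used features averaging 50 counts or more in both experiments (prior count 2). Granulosa and cumulus markers summed to 19.2 to 53.9 TPM in every library. In the RNA-seq and the Inputs most of it was Nr5a2 and Cyp19a1, at 32.0 and 6.16 of 40.4 TPM in Ctrl Input replicate 1. Fshr, Inha and Amh lay under 1 TPM in these libraries. The code was tested on simulated data. The labels do not say that libraries of a group are separate pools, while the study's legends call them biologically independent samples (n = 2). The p-values measure only the spread between the libraries, and its source was not tested.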

Additional observations from a re-analysis of the deposited data

Results flagged for a closer look

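In normalized CPM, Mcm6 was the 1 licensing gene whose log2 ratio of IP to Input had opposite signs in the control and the FLAG lysates. The ratio was 0.080 and 0.030 in the control lysates and -1.27 and -0.089 in the FLAG lysates. On TPM the signs were not opposite, since Mcm6 also fell in the control, from 65.7 and 85.8 TPM in the Ctrl Input to 51.8 and 54.7 TPM in the Ctrl IP. With the length trend taken out, its log2 fold change in the control was -0.34. The opposite signs as such were not tested, and the share of all features that show them was not counted. The test of the difference between the ratios gave a log2 value of -0.55 (SE 0.72, adjusted p = 0.83 by edgeR). Without FLAG IP replicate 1 the value was 0.04 (adjusted p = 0.99), without FLAG IP replicate 2 it was -1.53 (adjusted p = 0.00094), and over all alternatives the adjusted p was 0.00094 to 1.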

How the results depend on the processing

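In the knockdown, where the main test called 0 licensing genes, DESeq2 called 2, edgeR with no filter 2, limma on log2(TPM + 1) 3, limma on log2(TPM + 0.1) 3 and edgeR with the length trend taken out 1, all lower, and leaving out a library gave 0 to 1. Size factors (RLE) and effective lengths changed no call of a licensing gene in any comparison. With the replicate number as a block, 0 were called, and 426 features higher and 217 lower in place of 731 and 517. Of the named genes of the other lists, Ticrr (adjusted p = 0.069), Pola1 (0.064), Lig1 (0.087) and Usp7 (0.10) were not called with that block. Replicate differences of Lsm1_KD and Ctrl correlated at -0.112. Those of Inputs and IPs correlated at 0.115 for FLAG and 0.058 for the control, although each IP came from its lysate. Such values therefore cannot show whether the numbers pair the libraries. A block with crossed pairing, added after seeing the data, called 5 (1392 and 1224 of all features). DESeq2 called 877 and 859 features, edgeR with no filter 1033 and 924, limma 424 and 848 or 378 and 736, and without a library the counts were 472 to 738 and 191 to 520. Mcm5 changed sign on TPM (-0.11 and -0.11) and Cdc6 with the length trend (0.059), with the crossed block (0.015) and without a library (-0.28 to 0.29).

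In the Inputs 0 were called, and 0 to 1 without a library. Values near 0 changed sign. Mcm5 gave -0.0088 with DESeq2, -0.013 with no filter, -0.063 and -0.064 on TPM and -0.0042 with all 8 RIP-seq libraries, and Mcm2 -0.048 and -0.049 on TPM. With the length trend, Mcm7 gave 0.0059 and Cdt1 0.0036. Without a library, Mcm2 lay between -0.056 and 0.088, Mcm3 between -0.24 and 0.055, Mcm5 between -0.084 and 0.088, Mcm7 between -0.14 and 0.11, Cdt1 between -0.050 and 0.023, Gmnn between -0.34 and 0.0092 and Orc1 between -0.20 and 0.037. Of all features, limma called 65 higher and 70 lower or 58 and 94, and without FLAG Input replicate 2 edgeR called 790 and 1042.

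In FLAG IP over FLAG Input, 3 and 2 licensing genes were called on TPM (pseudocounts 1 and 0.1) and 0 to 10 without a library, and Mcm6 lay between -1.47 and 0.049. Features called lower numbered 1776 to 2620 with DESeq2, no filter, the lysate block, limma or the length trend, in place of 1040, limma called 489 and 1385 higher in place of 3975, and without a library 473 to 7463 were higher and 5 to 5927 lower. In Ctrl IP over Ctrl Input, 1 and 1 were called on TPM (Mcm2) and 0 to 1 without a library. Mcm6 gave -0.49 and -0.50 on TPM, -0.34 with the length trend and -0.0031 to 0.135 without a library. DESeq2, no filter and the lysate block called 1228, 1597 and 1436 features higher in place of 403, limma 94 and 177 and the length trend 250, and without a library 111 to 2317 were higher and 0 to 798 lower. In the ratio of ratios, 0 to 7 were called without a library. Of all features, no filter gave 17 higher and 4 lower, the lysate block 4 and 6, and leaving out a library up to 1725 and 4626. There Mcm2 lay between -1.60 and 0.36, Mcm4 between -0.48 and 0.093, Mcm6 between -1.53 and 0.043 and Gmnn between -1.36 and 0.096. On TPM (pseudocounts 1 and 0.1), Mcm2 gave 0.0036 and 0.0022, Mcm4 0.42 and 0.43, Mcm5 0.46 and 0.47, Mcm7 0.067 and 0.068, Cdc6 0.23 and 0.23 and Orc1 0.079 and 0.078. A replicate block by lysate called 0 licensing genes in the 3 pull-down comparisons. The causes were not tested.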
